A study of Mus musculus with 12 samples.

Results

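The genes described here encode the proteins of the mitochondrial ribosome. They were taken as every entry whose symbol begins with Mrpl or Mrps followed by a number. They numbered 78 of the 21493 genes listed for each of the 12 libraries, 49 Mrpl genes named for the large ribosomal subunit and 29 Mrps genes named for the small one. All 78 were protein-coding in the GENCODE M21 annotation, and all 78 passed a filter on low counts that left 13158 genes for testing. Polyadenylated RNA was sequenced from adult cardiomyocytes, the contracting cells of the heart, freshly isolated by enzymatic perfusion from 3-month-old mice. Their genotype was wild-type (Des+/+) or null throughout the body (Des-/-) for desmin, the muscle-specific intermediate filament protein. Mice of each genotype had been put through swimming exercise (swim) or not (non-swim), which gave 4 groups of 3 libraries: Des+/+ non-swim, Des+/+ swim, Des-/- non-swim and Des-/- swim. By the study's methods each library pools the cells of several mice, so p-values measure the spread between pools.

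Mitochondrial ribosomes translate the few messages of the mitochondrial genome, all of which encode core subunits of the respiratory chain and of ATP synthase. Their ribosomal RNA is made inside the organelle, while every one of their proteins is encoded in the nucleus, made in the cytosol and imported. Compared with the bacterial ribosome they carry many additional proteins, and inherited defects in several of these genes cause cardiomyopathy in people. The comparisons below ask how the transcripts of this machine differ between the genotypes at rest and after exercise, and whether the large and small subunits move together.

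Reads assigned to genes ranged from 4320819 to 12072443 per library. The Des-/- swim libraries had the fewest, 4320819 to 6521963. Levels are given in CPM, read counts scaled to a library total common to all libraries. The lowest count of any member in any library was 29, for Mrps33. Des itself stood between 973 and 3647 CPM in the 6 Des+/+ libraries and between 50.3 and 101 CPM in the 6 Des-/- libraries, as labelled. All 12 cardiomyocyte markers examined were detected in every group. Their summed level nevertheless ran from 60032 to 95268 CPM in the Des+/+ non-swim libraries, from 31283 to 53220 in Des+/+ swim, from 6691 to 28460 in Des-/- non-swim and from 17212 to 28603 in Des-/- swim. The libraries of replicate 3 stood apart from the other Des-/- libraries on the first principal component (102 for non-swim and 59.0 for swim, against 4.39 to 40.9). Results are therefore also given without them where they change.

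The 78 genes lay on 17 chromosomes, none of them on X or Y, and their merged exons spanned 607 to 8631 bases with a median of 2394. For 33 of the 78 members (42.3%) another protein-coding gene started on the opposite strand within 1000 bases, against 2265 of all 20297 protein-coding genes listed (11.2%). Mrpl46 and Mrps11 form such a head-to-head pair with each other. Other members face a gene of the respiratory chain (Mrpl36 and Ndufs6, Mrpl47 and Ndufb5), the mitochondrial seryl-tRNA synthetase (Mrps12 and Sars2) or the mitochondrial helicase Twinkle (Mrpl43 and Twnk). Exons of 4 members overlap those of another protein-coding gene on the same strand (Mrpl53 and Gm42688, Mrps6 and Gm49711, Mrps24 and Urgcp, Mrps34 and Nme3), and the counts of these members are uncertain to that extent.

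RefSeq promoters (GRCm38.p6, 250 bases before to 50 after the start of a gene) were at hand for 69 of the 78 members, 75 windows in all. They were searched on both strands for the motifs of nuclear regulators of mitochondrial genes. The NRF1 motif GCGCNTGCG was found in 18 of the 75 windows (24%), against 9.08% of the 19781 promoters of genes in the count files. The ETS motif CCGGAAGT, which GABP binds, was found in 12 (16%, against 5.38%), and the YY1 motif AAGATGGCG in 8 (10.7%, against 1.94%). The E-box CACGTG, searched for comparison, was found in 9.33% against 8.16%. A match is a run of letters and does not show that a factor binds there. The windows below show such matches in capitals with 10 bases on each side, on the strand of the gene, for members whose transcripts are described in the following paragraphs. The NRF1 matches come first.
Mrpl39, minus strand, chr16:84735351-84735379: aaggagaggcGCGCATGCGcccccgcgtg
Mrpl12, plus strand, chr11:120484546-120484574: tattgtctccGCGCCTGCGcgtcgcaccg
Mrpl44, plus strand, chr1:79775974-79776002: gaagcacttgCGCACGCGCagtacactag
Mrps7, plus strand, chr11:115604104-115604132: cgctcactcaCGCAGGCGCgctgtgggca
Mrps9, plus strand, chr1:42851218-42851246: tgggaggtctGCGCCTGCGcagtctccag
The YY1 matches of Mrpl42 and Mrps18a lay just after the start, at 27 and 11 bases.
Mrpl42, minus strand, chr10:95501904-95501932: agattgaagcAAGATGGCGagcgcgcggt
Mrps18a, plus strand, chr17:46111005-46111033: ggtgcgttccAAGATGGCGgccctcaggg
The ETS matches of Mrpl27 and Mrps22 lay 55 and 11 bases before the start.
Mrpl27, plus strand, chr11:94653726-94653753: tccgcaagacCCGGAAGTagatctatcc
Mrps22, minus strand, chr9:98601673-98601700: acctctcgagCCGGAAGTtgctctatcg
The promoter of Mrpl45 held 3 NRF1 matches. The 150 bases before its start hold 2 of them.
Mrpl45, plus strand, chr11:97315566-97315715: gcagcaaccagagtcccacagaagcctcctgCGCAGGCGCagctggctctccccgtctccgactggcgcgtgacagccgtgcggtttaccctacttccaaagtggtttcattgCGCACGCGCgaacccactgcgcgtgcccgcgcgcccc

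In the cardiomyocytes of Des+/+ mice that had not swum, the members differed widely in level. Per kilobase of exon (RPKM), the group means ran from 2.40 to 104, with a median of 21.8. The highest large subunit genes were Mrpl12, a protein of the stalk that recruits translation factors (104 ± 14.2 RPKM, mean and SD of 3 libraries), Mrpl28 (80.7 ± 10.5) and Mrpl2 (71.2 ± 8.19). The highest small subunit genes were Mrps23 (82.6 ± 19.8), Mrps21 (59.2 ± 15.6) and Mrps28 (45.9 ± 6.93). The mean of Mrpl12 exceeded the others by more than its own SD, while Mrpl28, Mrpl2 and Mrps23 did not differ beyond the spread between libraries. At the other end stood Mrps10 (2.40 ± 0.849) and Mrps22 (4.88 ± 0.488) of the small subunit and Mrpl23 (4.87 ± 0.978), Mrpl32 (5.08 ± 0.670) and Mrpl48 (5.37 ± 0.296) of the large one, and of these only Mrps10 stood apart from the rest by more than their spread. Mrps30 came next above Mrps10 and Mrps22 among the Mrps genes at 6.68 ± 1.17 RPKM. These levels are per annotated exon length, so a long and rarely used exon lowers them.

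Across the 4 groups the members stood highest in Des+/+ non-swim and lowest in Des-/- non-swim. Their summed level was 3828, 4518 and 4327 CPM in the libraries of Des+/+ non-swim and 3513, 2925 and 3464 CPM in those of Des+/+ swim. It was 2346, 2284 and 1974 CPM in Des-/- non-swim and 2940, 2764 and 2456 CPM in Des-/- swim. Each neighbouring pair of groups in the order Des+/+ non-swim, Des+/+ swim, Des-/- swim, Des-/- non-swim was separated except Des+/+ swim and Des-/- swim, whose ranges overlapped slightly. For 55 of the 78 members the group means followed that same order. The highest mean was that of Des+/+ non-swim for 72 members, and the lowest was that of Des-/- non-swim for 66, of Des-/- swim for 8 and of Des+/+ swim for 4.

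Without swimming, the mitochondrial ribosomal protein genes were lower in Des-/- than in Des+/+ cardiomyocytes almost without exception. Of the 78 members 66 were called lower at an adjusted p under 0.05 and 0 higher, where 18.0% of all tested genes were called lower and 14.0% higher. The fitted change was below 0 for 77 members, and its median was -0.95 on the log2 scale, which left 51.8% of the Des+/+ level, beside a median of 0.039 over all tested genes. The changes ran from -1.66 to 0.043, and 33 members changed by -1 or less, which is 50% of the control level or below. For 69 members all 3 Des-/- libraries lay below all 3 Des+/+ libraries, which held for 24.9% of all tested genes. In RNA of a whole preparation, fewer cardiomyocytes and less of these transcripts per cardiomyocyte cannot be told apart.

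**Figure D1:**
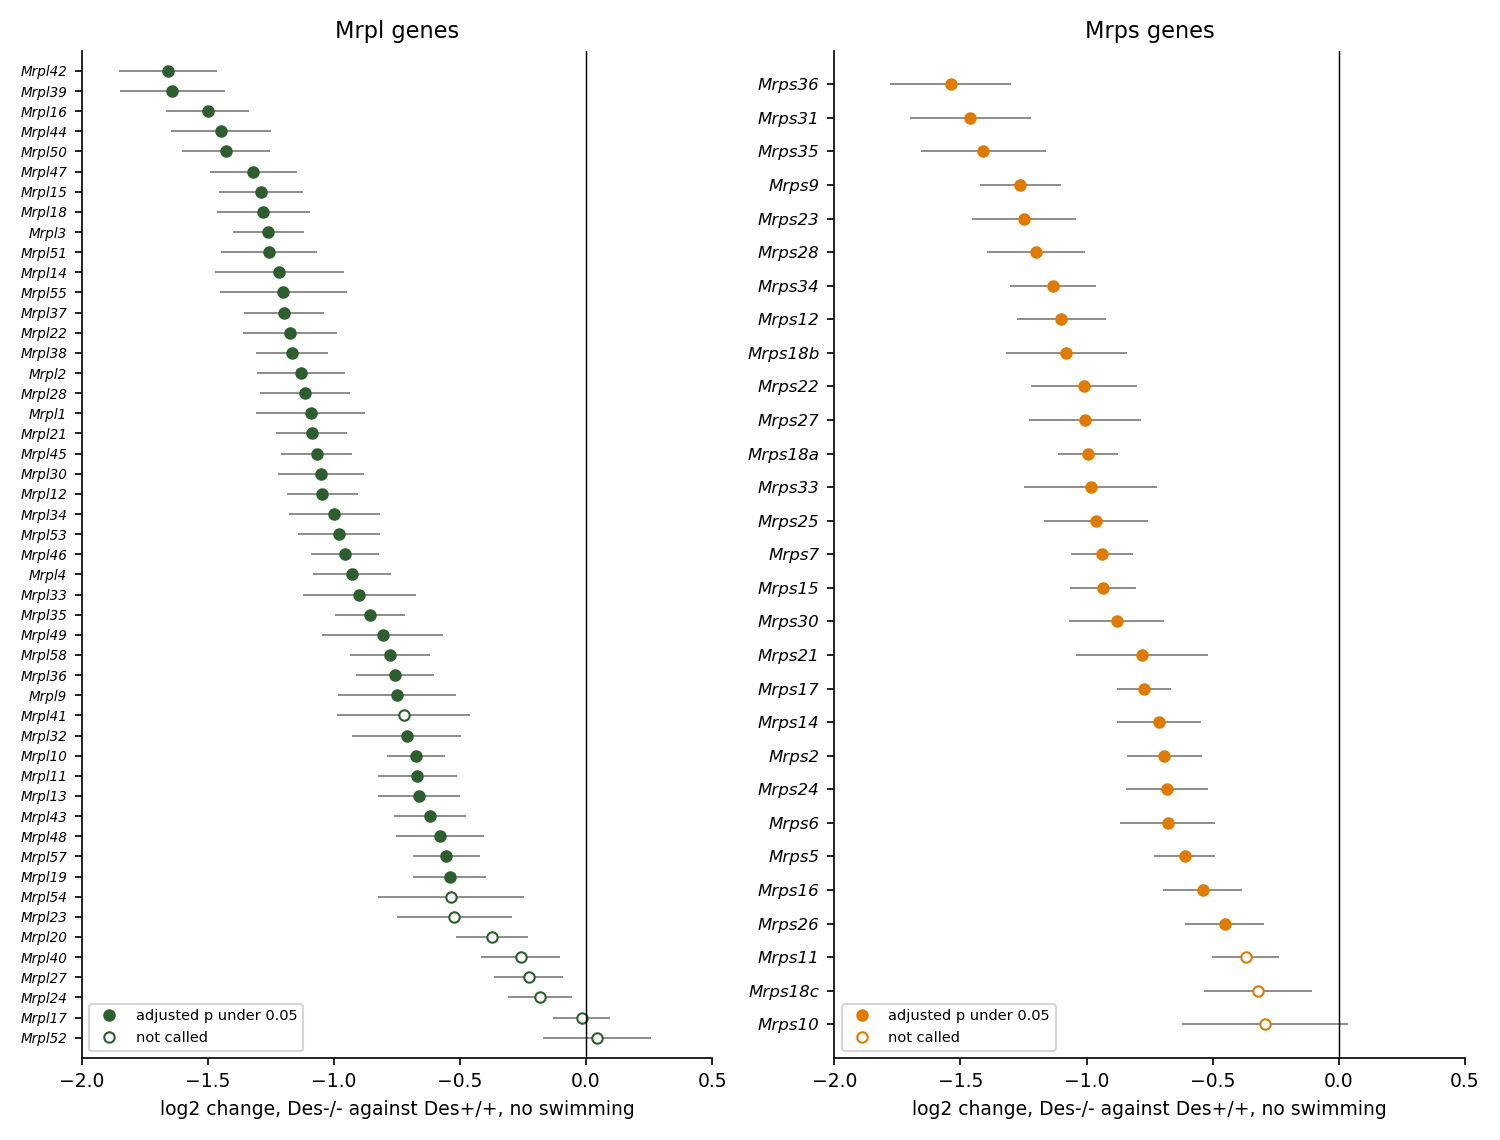
Log2 change of each Mrpl gene (left) and each Mrps gene (right) in Des-/- against Des+/+ cardiomyocytes without swimming, ordered by size, with the standard error as a bar. Filled points passed the test (adjusted p under 0.05), open points did not. Of the 78 points 77 lie below 0, and 66 are filled.

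Among the large subunit genes, the fall was largest for Mrpl42, Mrpl39, Mrpl16, Mrpl44 and Mrpl50, the members of that subunit named by the size of their change. Mrpl42, a protein particular to mitochondrial ribosomes, stood at 145, 157 and 168 CPM in the Des+/+ libraries and at 55.4, 55.3 and 38.5 in the Des-/- libraries, a log2 change of -1.66 (SE 0.20, adjusted p = 0.00082). Mrpl39, which is related to threonyl-tRNA synthetase, went from 63.8, 81.2 and 65.5 CPM to 19.03, 27.4 and 21.1, a change of -1.64 (SE 0.21, adjusted p = 0.00085). The groups were far apart for both, and every Des-/- library held less than 50% of the lowest Des+/+ library. Mrpl16, a homologue of the bacterial protein L16 near the tRNA binding sites, went from 48.3, 64.3 and 60.5 to 20.8, 22.9 and 17.5 CPM (-1.50, SE 0.17, adjusted p = 0.000704). Mrpl44, which has the fold of an RNase III, went from 59.2, 71.6 and 61.5 to 22.5, 27.2 and 20.8 CPM (-1.45, SE 0.20, adjusted p = 0.000921). Mrpl50 went from 67.8, 65.9 and 64.1 to 24.02, 28.8 and 20.7 CPM (-1.43, SE 0.17, adjusted p = 0.00082). No library of one genotype reached the range of the other for any of these 5 genes. In total 40 of the 49 Mrpl genes were called lower, and 22 of them were at or below a log2 change of -1.

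Among the small subunit genes, the largest falls were those of Mrps36, Mrps31, Mrps35, Mrps9 and Mrps23. Mrps36 bears a ribosomal name, but its product is now placed in the 2-oxoglutarate dehydrogenase complex of the citric acid cycle. It stood at 34.5, 26.3 and 36.2 CPM in Des+/+ and at 12.1, 13.9 and 7.43 in Des-/-, a log2 change of -1.54 (SE 0.24, adjusted p = 0.00127). Mrps31, a protein particular to mitochondria, went from 46.4, 46.98 and 45.02 to 18.7, 17.1 and 14.5 CPM (-1.46, SE 0.24, adjusted p = 0.00146). The 3 Des+/+ libraries of Mrps31 lay close together, and every Des-/- library lay far below them. Mrps35 went from 70.7, 85.2 and 76.96 to 28.9, 40.9 and 18.1 CPM (-1.41, SE 0.25, adjusted p = 0.00205). Mrps9, whose bacterial homologue S9 reaches towards the tRNA in the P site, went from 92.99, 101 and 96.9 to 44.4, 44.8 and 31.9 CPM (-1.26, SE 0.16, adjusted p = 0.000835). Mrps23 went from 103, 163 and 120.1 to 55.7, 64.8 and 42.2 CPM (-1.25, SE 0.21, adjusted p = 0.00158). The genotypes did not overlap for any of the 5, although the Des-/- libraries of Mrps35 ranged over more than 2 times from lowest to highest. In total 26 of the 29 Mrps genes were called lower, 11 of them at or below -1.

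Transcripts of the large and the small subunit stayed in nearly the same proportion in all 4 groups. The median change was -0.96 over the Mrpl genes and -0.94 over the Mrps genes. Mrpl transcripts made up 68.0% ± 0.745 (SD, n = 3) of the summed CPM of all members in Des+/+ non-swim, 67.9% ± 0.649 in Des+/+ swim, 67.8% ± 0.447 in Des-/- non-swim and 67.4% ± 0.212 in Des-/- swim. All 12 libraries lay between 67.1% and 68.6%, and the groups overlapped. Mrps18a and Mrps30 keep small subunit names although their products sit in the large subunit of the mammalian mitochondrial ribosome. Counting them there and leaving out Mrps36 moved the group means to between 70.1% and 70.9%. The Des-/- swim libraries (69.8% to 70.2%) then lay just below the Des+/+ swim libraries (70.3% to 71.6%), while every other pair of groups overlapped. Members that have a homologue in bacteria (46 genes) had a median change of -0.82, and those particular to mitochondria (31 genes) one of -0.99, a difference that was not tested.

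**Figure D2:**
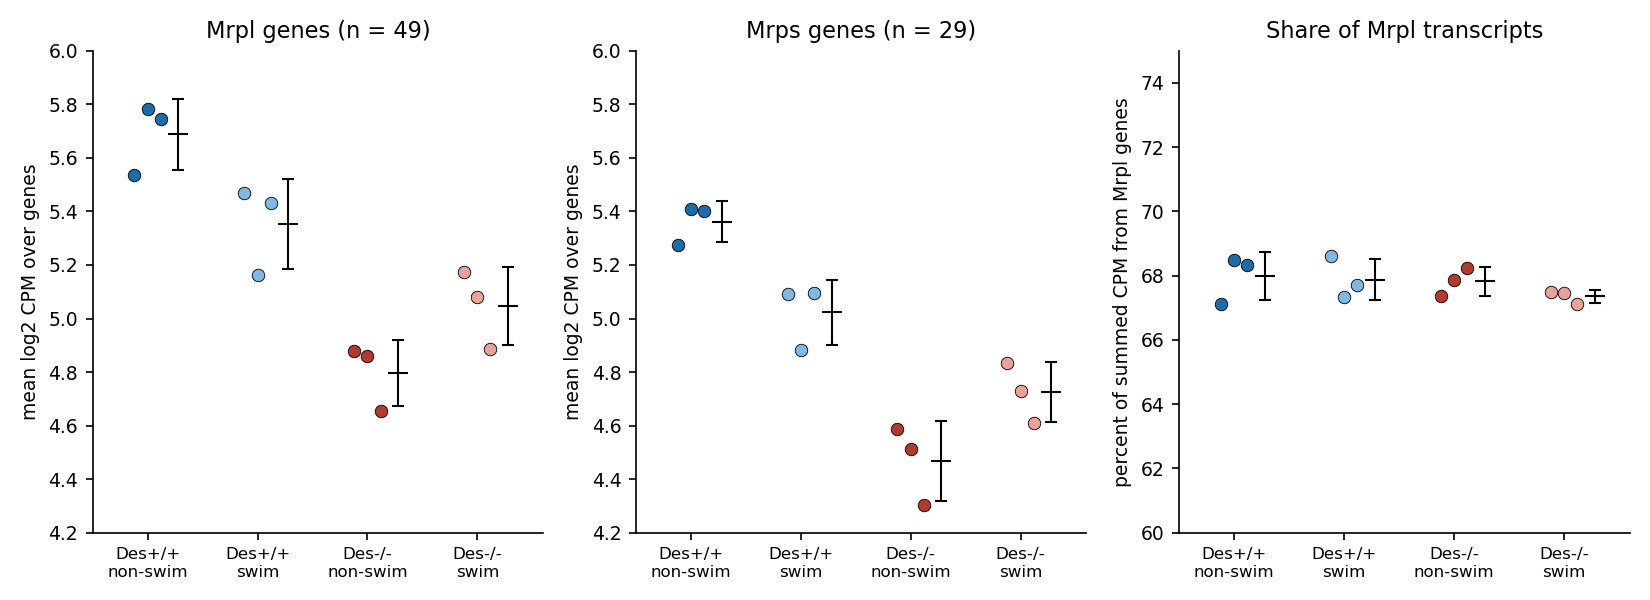
Mean log2 CPM over the 49 Mrpl genes (left) and the 29 Mrps genes (middle), and percent of the summed CPM of all members that came from Mrpl genes (right), in each of the 12 libraries. Points are libraries, and bars give the mean and SD of 3. Both subunits stand lowest in Des-/- non-swim, while the share stays between 67.1% and 68.6%; the axis of the share runs from 60 to 75.

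The counts of the short lists below stand beside 84.6% of all members and 18.0% of all tested genes called lower. Within the large subunit, the 4 proteins of the stalk and its base were all called lower. Mrpl12, the highest member per kilobase, stood at 137, 181 and 160.1 CPM in Des+/+ and at 81.00, 81.8 and 69.01 in Des-/- (-1.05, SE 0.14, adjusted p = 0.000903). Mrpl10 changed by -0.67, Mrpl11 by -0.67 and Mrpl53 by -0.98. For Mrpl53, 695 of 790 exon bases overlap Gm42688 on the same strand, which leaves its count uncertain. Mrpl3, Mrpl44, Mrps14 and Mrps22, 4 genes whose inherited defects cause cardiomyopathy in people, were called lower too. Mrpl3 stood at 87.7, 80.9 and 68.8 CPM in Des+/+ and at 30.6, 38.2 and 30.4 in Des-/- (-1.26, SE 0.14, adjusted p = 0.000761). Mrps14 changed by -0.71 (SE 0.17) and Mrps22 by -1.01 (SE 0.21). Around the exit of the tunnel through which the new protein leaves, on the side that faces the membrane, 5 of 8 genes were called lower (median -1.12). Mrpl39, Mrpl44, Mrpl45, Mrpl47 and Mrpl22 were the called ones, and Mrpl17, Mrpl23 and Mrpl24 were not. In the central protuberance, the part that contacts the small subunit head, 4 of 7 were called lower (median -0.58), namely Mrpl18 (-1.28), Mrpl38 (-1.17), Mrpl46 (-0.96) and Mrpl48 (-0.58), while Mrpl27, Mrpl40 and Mrpl52 did not pass. The 3 paralogs of bacterial S18 did not all pass the test. Mrps18a (-0.99, SE 0.12) and Mrps18b (-1.08, SE 0.24) were called lower, while Mrps18c had a change of -0.32 (SE 0.21, adjusted p = 0.276) with overlapping libraries.

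The test was not passed by 12 members, whose changes ran from -0.72 to 0.043. They were Mrpl17, Mrpl20, Mrpl23, Mrpl24, Mrpl27, Mrpl40, Mrpl41, Mrpl52 and Mrpl54 of the large subunit and Mrps10, Mrps11 and Mrps18c of the small one. Some of these were measured tightly. Mrpl17, a homologue of bacterial L17, stood at 43.5, 49.8 and 50.4 CPM in Des+/+ and at 48.9, 45.5 and 47.6 in Des-/-, a change of -0.018 with an SE of 0.11. The libraries of both genotypes overlapped there. Mrpl24 (-0.18, SE 0.13) and Mrpl27 (-0.23, SE 0.14) also had small errors. Others were measured with wide errors, such as Mrpl54 (-0.54, SE 0.29) and Mrps10 (-0.29, SE 0.33). The head-to-head pair came out on either side of the threshold. Mrpl46 stood at 27.8, 31.8 and 30.8 CPM in Des+/+ and at 16.8, 15.9 and 13.9 in Des-/- (-0.96, SE 0.14, adjusted p = 0.000969). Its neighbour Mrps11 stood at 21.5, 23.7 and 23.3 and 18.4, 18.1 and 16.5 CPM (-0.37, SE 0.13, adjusted p = 0.0537). The libraries did not overlap for either gene, and the difference between both changes was not tested. The genes themselves overlap on opposite strands, where reads may be shared or lost.

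**Figure D3:**
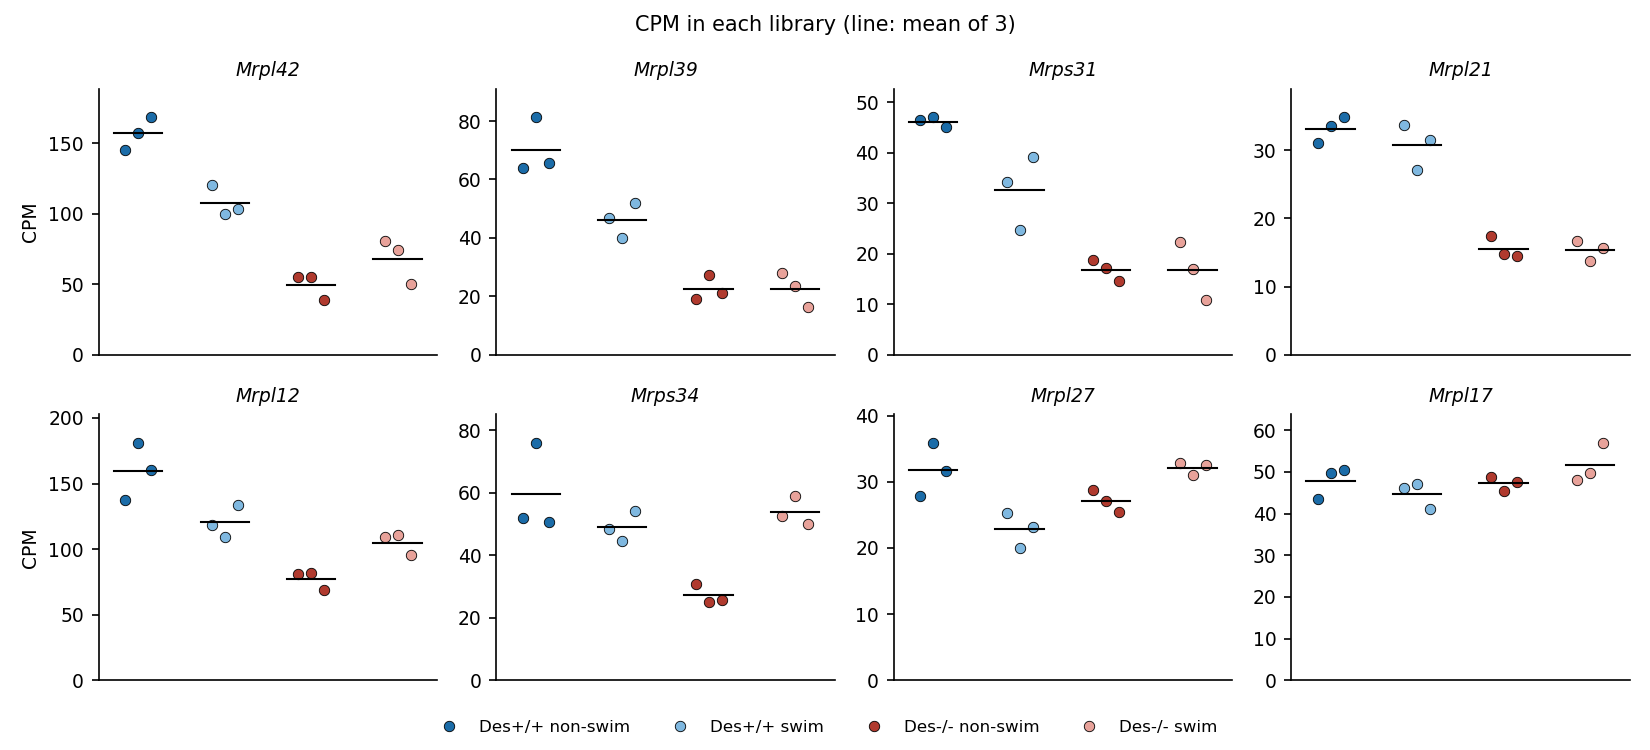
CPM of 8 members in each of the 12 libraries; points are libraries, the line is the mean of 3, and each axis starts at 0. The Des-/- libraries of Mrpl42, Mrpl39, Mrps31 and Mrpl21 lie below the Des+/+ libraries with and without swimming, Mrps34 lies within the Des+/+ range in Des-/- swim, and Mrpl17 stays between 41.1 and 57.0 CPM throughout.

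Markers of cell types moved with the genotype as well. Without swimming all 12 cardiomyocyte markers were called lower in Des-/- (median log2 change -2.02), while 10 of 10 fibroblast markers (median 2.11), 8 of 10 macrophage markers (2.77) and 5 of 5 erythrocyte markers (3.07) were called higher. The summed level of the fibroblast markers ran from 3337 to 3920 CPM in Des+/+ non-swim and from 8570 to 40595 CPM in Des-/- non-swim, and that of the macrophage markers from 224 to 344 CPM and from 422 to 4429 CPM. None of 10 endothelial and 7 mural markers passed the test (medians -0.057 and -0.33). A fit with the difference between fibroblast and cardiomyocyte markers as a covariate called 1 member lower in place of 66 and gave a median of -0.52. In that fit 9 of all 13158 tested genes (0.0684%) were called lower in place of 2370, so the loss of calls was not particular to the members. That covariate ranged from -5.05 to -3.81 in the Des+/+ libraries and from -2.87 to 1.49 in the Des-/- libraries, so it does not overlap between the genotypes and the 2 cannot be told apart. Without the replicate 3 libraries of both Des-/- groups, 57 members were called lower with a median of -0.81.

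After swimming fewer members passed the test between the genotypes, and their median change lay nearer to 0. The test of the difference between both comparisons is the interaction given further on, which called no member. Of the 78 members 13 were called lower in Des-/- and 1 higher, where 5.57% of all tested genes were called lower and 5.01% higher. The median change was -0.29, beside 0.020 over all tested genes, which left 81.8% of the Des+/+ swim level, and 63 members were below 0. For 31 members all Des-/- swim libraries lay below all Des+/+ swim libraries, against 18.6% of all tested genes. The 13 genes called lower were all among the 66 called lower without swimming, of which they made up 19.7%. The other 53 had a median change of -0.27 after swimming, and 7 of them were above 0. The 2 comparisons share no library.

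**Figure D4:**
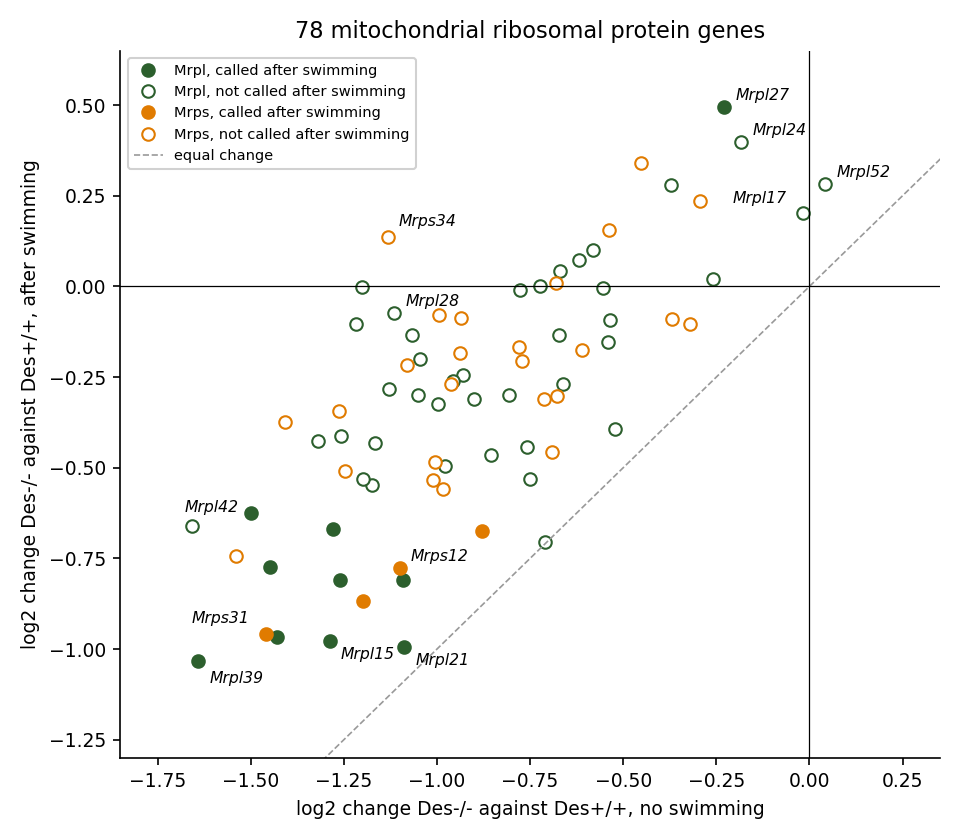
Log2 change in Des-/- against Des+/+ without swimming (horizontal) and after swimming (vertical) for the 78 members. Filled points were called after swimming, the dashed line marks equal change, and all 78 points lie above it, Mrpl32 by the least.

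The large subunit genes with the largest remaining difference were Mrpl39, Mrpl21, Mrpl15, Mrpl50 and Mrpl3. Mrpl39 stood at 46.9, 39.9 and 52.1 CPM in Des+/+ swim and at 27.9, 23.6 and 16.3 in Des-/- swim (-1.03, SE 0.21, adjusted p = 0.0173). Mrpl21, a homologue of bacterial L21, stood at 33.7, 27.1 and 31.4 and 16.6, 13.8 and 15.7 CPM (-0.99, SE 0.14, adjusted p = 0.00887). Its difference after swimming was close to that without swimming, where the libraries read 31.1, 33.5 and 34.8 CPM in Des+/+ and 17.4, 14.8 and 14.5 in Des-/- (-1.09, SE 0.14). Mrpl15 changed by -0.98 (SE 0.17), Mrpl50 by -0.97 (SE 0.17) and Mrpl3 by -0.81 (SE 0.14). Every Des-/- swim library lay below every Des+/+ swim library for these 5 genes. Of the small subunit genes, Mrps31 changed by -0.96 (SE 0.24), Mrps28 by -0.87 (SE 0.20), Mrps12, whose bacterial homologue lines the decoding centre, by -0.78 (SE 0.18) and Mrps30 by -0.67 (SE 0.19). The remaining genes called lower were Mrpl1 (-0.81), Mrpl16 (-0.62), Mrpl18 (-0.67) and Mrpl44 (-0.77). Mrpl42, which had the largest change without swimming, stood at 120.3, 99.5 and 103 CPM in Des+/+ swim and at 80.3, 73.9 and 50.03 in Des-/- swim (-0.66, SE 0.19, adjusted p = 0.0501) and missed the threshold, with no overlap between the genotypes.

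Mrpl27 was the single member called higher. It is the homologue of bacterial L27 at the peptidyl transferase centre, and it stood at 25.3, 20.01 and 23.2 CPM in Des+/+ swim and at 32.8, 31.1 and 32.5 in Des-/- swim, a log2 change of 0.49 (SE 0.14, adjusted p = 0.0433). The groups did not overlap. In the libraries without swimming it read 27.8, 35.9 and 31.7 CPM in Des+/+ and 28.8, 27.2 and 25.5 in Des-/-, so that the Des+/+ swim group was the lowest of the 4. The call of Mrpl27 was lost in 9 of the 12 fits that left out 1 library, where its change stayed between 0.41 and 0.57. The count of members called after swimming rested on single libraries as well. It was 1 without Des+/+ swim replicate 3, 5 without Des+/+ swim replicate 1 or Des-/- swim replicate 2, 6 without Des-/- swim replicate 3, 8 without Des+/+ non-swim replicate 3 and 9 without Des-/- swim replicate 1. The calls over all genes fell in the same fits, from 1392 with all libraries to 74, 561, 637, 664, 930 and 505, in the order just given. The median stayed between -0.37 and -0.20 in all 12 such fits. Mrpl21 kept its call in all 12, while Mrpl39, Mrpl50, Mrpl15 and Mrpl3 lost theirs only without Des+/+ swim replicate 3 (adjusted p of 0.0527 to 0.0688). Mrps31, Mrps28 and Mrps12 lost theirs in 4 of the 12 and Mrps30 in 7. After swimming the markers differed less too, with 1 of 12 cardiomyocyte markers called lower (median -0.64), 2 of 10 fibroblast markers called higher (1.25) and no macrophage or erythrocyte marker called (1.17 and -0.44). With the covariate made from the fibroblast and cardiomyocyte markers, 5 members were called lower, where 3.21% of all tested genes were, and the median of the members was -0.13.

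Swimming itself changed no member past the threshold in either genotype, while the fitted changes of the members pointed in opposite directions. In Des+/+ cardiomyocytes 0 of 78 members were called by the edgeR test, where 0.0912% of all tested genes were. All 78 fitted changes were below 0, with a median of -0.33 beside -0.081 over all tested genes. An unadjusted p under 0.05 was found for 30 members and for 2697 of all 13158 tested genes. For 38 members all swim libraries lay below all non-swim libraries, against 18.7% of all tested genes. The smallest p-values were those of Mrpl27, Mrps18a and Mrpl16. Mrpl16 stood at 48.3, 64.3 and 60.5 CPM without and 42.4, 33.4 and 43.8 CPM with swimming (-0.53, SE 0.16, adjusted p = 0.123). Mrps18a stood at 50.7, 61.7 and 60.6 and 44.3, 43.01 and 43.3 CPM (-0.41, SE 0.12, adjusted p = 0.119), and Mrpl27 had a change of -0.48 (SE 0.14, adjusted p = 0.116). The libraries of all 3 genes were lower with swimming without overlap. DESeq2 called 1 member lower, where it called 2.72% of the 11138 genes to which it gave an adjusted p in that direction. Both Des-/- replicate 3 libraries are outside this comparison but share its estimate of the spread. Without them edgeR called 1 member and 743 of all 13216 tested genes, against 12 genes with them. The cardiomyocyte and erythrocyte markers had medians of -0.79 and 2.53 in this comparison, with 0 of 12 and 0 of 5 called. The medians of the endothelial, fibroblast, macrophage and mural markers were 0.30, -0.20, 0.13 and -0.059, also with none called.

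In Des-/- cardiomyocytes 0 of 78 members were called, where 0.0228% of all tested genes were. An unadjusted p under 0.05 was found for 26 members and for 2201 of all 13158 tested genes. Here 69 fitted changes were above 0, with a median of 0.27 beside -0.013 over all tested genes, and for 29 members all swim libraries lay above all non-swim libraries, against 10.4% of all tested genes. The largest change was that of Mrps34, a small subunit protein whose exons overlap those of Nme3. It stood at 30.7, 25.03 and 25.7 CPM without and 52.6, 59.05 and 50.03 CPM with swimming (0.99, SE 0.17, adjusted p = 0.111), and all 3 swim libraries lay well above all 3 non-swim libraries. Mrps18a stood at 29.4, 29.2 and 28.3 and 46.2, 39.6 and 37.7 CPM (0.51, SE 0.12, adjusted p = 0.186). Mrps7, whose bacterial homologue S7 organises the head of the small subunit, stood at 39.5, 40.8 and 33.5 and 54.7, 50.7 and 52.2 CPM (0.47, SE 0.12, adjusted p = 0.186). For all 3 the swim libraries were higher without overlap. DESeq2 called 4 members higher, where it called 1.57% of the 12517 genes to which it gave an adjusted p in that direction. In a fit of the 6 Des-/- libraries alone with the replicate number as a block, 0 members were called, and Mrps34 had an adjusted p of 0.0540. The cardiomyocyte markers had a median of 0.57 and the fibroblast markers one of -0.93 in this comparison, with none called. The medians of the macrophage, erythrocyte, endothelial and mural markers were -1.53, -1.07, 0.30 and 0.020, also with none called. With the fibroblast and cardiomyocyte marker covariate the median of the members was 0.13.

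**Figure D5:**
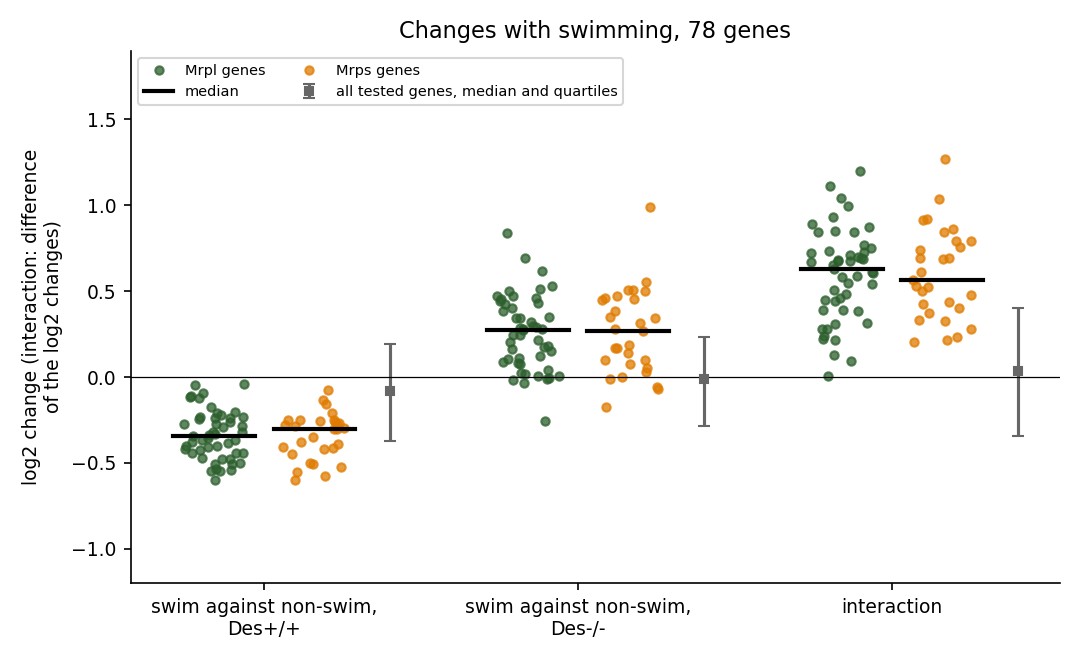
Log2 change with swimming in Des+/+ (left) and in Des-/- (middle) and the interaction (right, the change in Des-/- minus that in Des+/+) for the 49 Mrpl and 29 Mrps genes. Points are genes, black lines their medians, and grey squares with bars the median and quartiles of all tested genes. All 78 points lie below 0 on the left and above 0 on the right.

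The interaction, which tests whether swimming acts differently in the genotypes, called 0 members and 0% of all tested genes with edgeR. All 78 members had a value above 0, with a median of 0.61 beside 0.035 over all tested genes. An unadjusted p under 0.05 was found for 44 members and for 2148 of all 13158 tested genes. The smallest adjusted p was 0.199. Mrps34 had the largest value (1.27, SE 0.24), and its Des+/+ libraries read 51.98, 75.96 and 50.8 CPM without and 48.5, 44.5 and 54.1 CPM with swimming. Mrps18a had a value of 0.91 (SE 0.17) and Mrpl45, which holds the ribosome at the inner membrane, one of 0.93 (SE 0.20). Mrpl45 stood at 60.7, 71.99 and 65.8 CPM in Des+/+ non-swim, 44.1, 45.3 and 59.1 in Des+/+ swim, 30.2, 34.4 and 30.1 in Des-/- non-swim and 49.5, 43.7 and 41.7 in Des-/- swim. The call depended on the method. DESeq2 called 13 members, all above 0, where it called 2.51% of the 8037 genes to which it gave an adjusted p in that direction. The filter used by the study, applied to the edgeR values with its p read as unadjusted, passed 38 members, all above 0, where it passed 8.34% of all tested genes in that direction. In Mrpl32 and Mrpl21 the value was close to 0 (0.0052 and 0.094, SE 0.31 and 0.20).

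The machinery around the mitochondrial ribosome was lower in Des-/- without swimming as well. In that comparison 18.0% of all tested genes were called lower and 14.0% higher. The 5 mitoribosome proteins whose symbols fall outside the rule were all called lower (median -0.70), among them Ptcd3 (-1.46, SE 0.29) and Dap3 (-0.91, SE 0.18). Of 13 mitochondrial translation factors 10 were called lower and 0 higher (median -0.80), including the elongation factors Gfm1 (-1.77, SE 0.28) and Tufm (-1.36, SE 0.26) and Taco1, an activator of cytochrome oxidase translation (-1.90, SE 0.38). Of 20 genes for aminoacyl-tRNA synthetases and the amidotransferase of mitochondria, 12 were called lower and 1 higher (median -0.76). Fars2 (-1.41) was the furthest down and Lars2 (1.32) the one called higher, although its libraries overlapped between the genotypes. Of 27 assembly factors 16 were called lower and 0 higher (median -0.65), the largest change being that of Grsf1 (-1.59), an RNA granule protein. Of 13 genes of mitochondrial transcription and RNA processing 9 were called lower and 0 higher (median -0.80), including the transcription factor Tfb2m (-1.52). After swimming, where 5.57% of all tested genes were called lower and 5.01% higher, these 5 lists had 0, 2, 2, 2 and 3 genes called lower, and 1 assembly factor called higher, with medians between -0.32 and -0.065.

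Of 9 nuclear regulators of mitochondrial genes, 3 were called lower without swimming and 1 higher (median -0.11). The shares over all tested genes were 18.0% and 14.0%. Ppargc1a, the coactivator PGC-1alpha, stood at 68.00, 65.2 and 67.6 CPM in Des+/+ and 12.01, 25.9 and 4.37 in Des-/- (-2.26, SE 0.52, adjusted p = 0.00823). Esrra, the nuclear receptor that it partners, stood at 173, 205 and 184 and 65.3, 71.9 and 53.4 CPM (-1.56, SE 0.18, adjusted p = 0.000787). Gabpa, a subunit of GABP, was called lower (-0.40, SE 0.14), and Myc was called higher (2.64, SE 0.92). The transcripts of the factors behind the other promoter motifs had changes of 0.23 for Nrf1 and -0.11 for Yy1 and did not pass the test. Members with an NRF1 match in their promoter (18 genes) had a median change of -0.99 and those without (51 genes) one of -0.93, and 17 and 41 of them were called lower. Members with an ETS match (12 genes) had a median of -0.76 against -0.96 without, and those with a YY1 match (8 genes) one of -0.92 against -0.94. These differences were not tested.

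The nuclear genes of the respiratory chain and ATP synthase mostly encode subunits of complexes that also hold products of mitochondrial translation. These nuclear genes had a median change of -1.46 without swimming, with 78 of 82 called lower, and -0.49 after swimming, with 12 called lower. Their median was -0.39 with swimming in Des+/+ and 0.64 in Des-/-, where none was called. The 79 tested proteins of the cytosolic ribosome had medians of 0.30 without and 0.42 after swimming, with 9 and 12 called higher and 1 and 0 called lower. Of all tested genes 18.0% were called lower and 14.0% higher without swimming, and 5.57% and 5.01% after it. The 1 cytosolic ribosomal protein called lower was Rpl3l, the striated muscle form of Rpl3 (-2.60, SE 0.52), while Rpl3 was called higher (1.00, SE 0.16). The medians of the 3 families kept their sign under both other scalings of the libraries in all 5 comparisons. No test of the families against each other was made.

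The genes that start head to head with a member had a median change nearer to 0, a difference that was not tested. Among 28 tested partners that are not members themselves, the median change without swimming was -0.15, with 8 called lower and 2 higher beside 18.0% and 14.0% of all tested genes, while the members facing them had a median of -0.97 with 23 called lower. Mrpl44 changed by -1.45 and its partner Wdfy1 by -0.0052, and Mrpl50 by -1.43 and its partner Zfp189 by -0.17. Of 5 partners named here that serve mitochondria themselves, 4 were called lower together with their member. Mrpl47 changed by -1.32 and Ndufb5 by -1.64, Mrpl36 by -0.76 and Ndufs6 by -1.43, Mrps27 by -1.01 and Ptcd2 by -1.17, and Mrpl43 by -0.62 and Twnk by -1.17. Sars2, the partner of Mrps12 (-1.10), had a change of -0.83 and did not pass the test (adjusted p = 0.0629). These pairs were named after their values were seen. Mrpl36, Mrpl43, Mrpl44 and Mrpl47 overlap their partners on the opposite strand, where reads may be shared or lost. After swimming the partners had a median of 0.031 with 0 called lower and 1 higher, and the members facing them one of -0.28 with 5 called lower and 1 higher.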

How the data were processed

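Polyadenylated RNA of 12 pools of adult mouse cardiomyocytes was sequenced, 3 libraries in each of 4 groups. The authors deposited whole-number read counts per gene, made with HISAT2 2.2.1, SAMtools 1.13 and HTSeq on GENCODE M21 (GRCm38) with the reverse strand option. The labels name a kit that does not mark strand and the methods a directional one, so reads of overlapping genes on opposite strands may be shared or lost. Reads falling in no gene stayed out of library sizes. They made up 34.0% to 39.3% in Des+/+ non-swim, 45.9% to 50.4% in Des+/+ swim, 34.2% to 52.3% in Des-/- non-swim and 57.2% to 64.5% in Des-/- swim. The share was thus higher with swimming in both genotypes without overlap, and its bearing on the swimming comparisons was not tested. The groups came from the labels. The counts were fitted with edgeR 4.0.16 (quasi-likelihood F-test, R 4.3.3) to 4 group means over all 12 libraries, after filterByExpr (13158 genes) and TMM scaling, with Benjamini-Hochberg adjustment over all tested genes and a threshold of 0.05. The common biological coefficient of variation was 0.271. CPM use TMM library sizes, RPKM merged exons. On simulated data for the genotype comparison without swimming, over 13158 genes, 39 of 100 genes changed by a log2 of 1 were called, 84 of 100 changed by 2, and 5 of 12958 unchanged genes. Far fewer genes were changed there than the 4210 called in the data. The adjustment was therefore stricter, and these shares do not measure the sensitivity in the data. With 3 against 3 libraries an exact permutation test cannot go below p = 0.1, so none was used.

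Members and gene lists were chosen with earlier results of these data known. Named with values were, for each genotype comparison, the 5 members of each subunit with the largest change among called members whose libraries did not overlap and every member called higher; for swimming and the interaction, the 3 members with the smallest p; the 3 highest and 3 lowest of each subunit per kilobase; the members of short role lists; and 2 to 4 called members of other lists. Other values were chosen after they were seen, some of them for members that the rule names elsewhere. These were Mrpl17, Mrpl24, Mrpl27 and Mrpl52 among members not called, the wide-error and head-to-head examples, and Mrpl32 and Mrpl21 for their interaction. Deviations of same-numbered libraries from their group means correlated at 0.365, 0.316 and 0.602 between the Des-/- groups, which the labels do not explain. Between the other groups they correlated at -0.410 to 0.134. Replicate 3 stood apart in both Des-/- groups, which by itself can raise all 3 correlations. They therefore cannot decide whether the number pairs the Des-/- libraries. The values given come from the fit without the block. The block was fitted as an alternative to all 12 libraries and, chosen after seeing the data, to the 6 Des-/- libraries. Alternatives were RLE and upper-quartile scaling, no filter, DESeq2 1.42.0, fits of the compared libraries alone, a replicate block, omission of libraries, a cell marker covariate and the filter of the study (p of at most 0.05, absolute log2 change of at least 0.6, mean count of at least 20).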

Additional observations from a re-analysis of the deposited data

How the results depend on the processing

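The members' median change kept its direction in all 5 comparisons under every alternative run. Without swimming 57 to 68 members were called across the omissions of 1 library (median -1.02 to -0.88). The count was 66 with the replicate block, 60 with upper-quartile scaling, which moved the median of all genes from 0.039 to 0.14, and 57 without both Des-/- replicate 3 libraries, where the median was -0.81. With the cell marker covariate it was 1 and the median -0.52. Over all genes these fits called 4073, 4526, 3703 and 20 in the same order, against 4210 in the main fit. After swimming 1 to 19 members were called across the omissions (median -0.37 to -0.20), against 14 in all. The count was 6 with only the libraries compared, 9 without both Des-/- replicate 3 libraries, 5 with the covariate (median -0.13), 11 with the replicate block and 20 with DESeq2. Over all genes these fits called 1080, 1579, 750, 1309 and 2276 in the same order, against 1392 in the main fit. For swimming in Des+/+, 1 member was called by DESeq2, by the study's filter and without both Des-/- replicate 3 libraries, and 0 across the omissions (median -0.39 to -0.26). Over all genes DESeq2 called 790 there and the fit without those libraries 743, against 12 in the main fit. For swimming in Des-/-, DESeq2 and the study's filter called 4 each, the omissions 0 to 1 (median 0.19 to 0.35), the replicate block 0 both over all libraries and over the Des-/- libraries alone (the latter chosen after seeing the data), and the covariate gave a median of 0.13. Over all genes DESeq2 called 333 for swimming in Des-/-, against 3 in the main fit. The share of all tested genes passing the study's filter was not counted for swimming in either genotype. For the interaction DESeq2 called 13, the study's filter 38 and the omissions 0, with medians of 0.54 to 0.73 and 0.41 with the covariate. Assigning Mrps18a and Mrps30 to the large subunit moved its share to 70.9%, 70.8%, 70.6% and 70.1% in the order Des+/+ non-swim, Des+/+ swim, Des-/- non-swim, Des-/- swim. The cause of these differences was not tested, except that fits with fewer libraries have fewer degrees of freedom. Of the values for single named members, 514 kept their side of the threshold, 8 gained a call, 58 lost one and none reversed. The 10 members named without swimming lost their call under the covariate alone. The replicate block over all libraries ended the calls of Mrps30 (adjusted p = 0.0646) and Mrpl27 (adjusted p = 0.0645) after swimming and changed no other call of a named member. Depth limits single members little, as the lowest count was 29.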
